A study of Homo sapiens with 4 samples.

Results

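Footprints over 10 genes of blood coagulation and fibrinolysis were described here: F2, F5, F7, F9, F10, F12, PLG, PROC, PROS1 and KNG1. They were chosen by name, as every row of the junction tables that carried the gene identifier of 1 of them, and are 10 of the 35316 genes and 155 of the 350863 splice junctions in those tables. The study profiled ribosomes in 2 established human cell lines, with 2 untreated samples of each as far as the labels state. K562 derives from a chronic myelogenous leukemia and resembles early red blood cells, and HepG2 derives from a liver tumor and resembles hepatocytes, so each is a tumor line and stands for no normal tissue. In ribosome profiling, lysates are treated with RNase I in the presence of cycloheximide, and the short messenger RNA fragments that ribosomes shield (footprints) are sequenced. The deposited counts pool both samples of a line, and each count is of footprints that cross a splice junction.

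Coagulation is a chain of plasma proteases that are secreted as inactive precursors and activated by cutting. Factor VII with tissue factor starts the chain, factors XII and IX belong to the contact and amplifying branches, and factor X with its cofactor factor V turns prothrombin (F2) into thrombin. Thrombin cuts fibrinogen to fibrin. Protein C (PROC), with its cofactor protein S (PROS1), inactivates factor V and factor VIII, and plasminogen (PLG) gives plasmin, which dissolves fibrin. The liver is the main source of most of these proteins, whereas protein S is also made by endothelial cells and megakaryocytes. Prothrombin, factors VII, IX and X, protein C and protein S carry a Gla domain, whose glutamates are carboxylated in a vitamin K dependent step so that it can bind calcium and membranes.

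The 6 Gla genes share an exon of 25 bases just after the part that encodes most of the Gla domain, and it is shown because the junction before it carried the most reads of F7 and of F10. Capitals mark the exon and the lower case letters 2 bases of each neighboring exon, 5′ to 3′ in the spliced message, from GENCODE release 29 transcripts on GRCh38. PROS1 lies on the minus strand and the other genes on the plus strand.
F2, chr11:46720523-46720547: cgGATGTGTTCTGGGCCAAGTACACAGct
F7, chr13:113113752-113113776: cgAAGCTGTTCTGGATTTCTTACAGTGat
F9, chrX:139537362-139537386: caACTGAATTTTGGAAGCAGTATGTTGat
F10, chr13:113138457-113138481: cgAATGAATTCTGGAATAAATACAAAGat
PROC, chr2:127422917-127422941: caCTGGCCTTCTGGTCCAAGCACGTCGac
PROS1, chr3:93924240-93924264: cgGATTATTTTTATCCAAAATACTTAGtt
Among the 25 positions, 5 held the same base in all 6 genes. Over the 15 pairs of genes the number of identical positions ran from 8 to 17, with a median of 12. F2 and F10 were the pair with 17, and F7 and PROS1 the pair with 8.

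K562 had 10118105 mapped junction reads, of which 7487508 (74.0%) mapped uniquely, and HepG2 had 12001095, of which 9927809 (82.7%) did. Uniquely mapped reads at junctions of 1 gene, 7222089 in K562 and 9607307 in HepG2, were used throughout. Hepatocyte markers (ALB, AFP, TF, APOA1, TTR) summed to 231 reads in K562 against 845599 in HepG2. Erythroid markers (GATA1, TAL1, KLF1, EPOR, RHAG) summed to 8532 and 17, with every one but EPOR at 0 in HepG2, so the labels and the markers pointed to the same lines. With 1 table per line there was no replicate check of any value, and every interval is an exact 95% one for counting error alone.

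Nearly all footprints of the clotting genes came from HepG2. The 10 genes together had 14252 unique junction reads in HepG2 and 703 in K562, and PROS1 alone made up 98.6% of the K562 reads, against 56.2% from F2 in HepG2. A ratio was taken on depths scaled by TMM, a method that sets most genes to no change, and a gene with 20 or more reads counted as higher in a line if its interval lay wholly past 2-fold. By this rule 9 of the 9 genes with enough reads were higher in HepG2 and 0 in K562, whereas 21.9% of the 10956 genes measured in the same way were higher in HepG2 and 16.8% in K562. The minimum is on both lines together, and all of the 9 but PROS1 reached it only through their HepG2 reads. The 5 with 0 reads in K562, as 597 of all genes measured, could only be called higher in HepG2. The same limit holds for the lists below. F9 had no read in either line and was not measured. The median log2 ratio of HepG2 to K562 was 6.89 for the 9 genes and 0.01 for all genes, with a count of 0 set to a floor of 3 counts. Levels of messenger RNA were not analysed here, so more messages per cell and more ribosomes per message cannot be told apart, nor can fewer expressing cells and less RNA per cell.

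Prothrombin, the precursor of thrombin, was the most-read of the 10 genes. F2 (ENSG00000180210, chr11:46719180-46739506) had 1 unique read in K562 against 8013 in HepG2, which placed it at rank 122 of 35189 genes in HepG2. Its HepG2 to K562 ratio was 8050, with an interval of 1444 to 318012 that is wide because of the single K562 read.

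Factor X, the protease that cuts prothrombin, had no K562 read. F10 (ENSG00000126218, chr13:113122814-113149529) had 0 reads in K562 against 1217 in HepG2. With K562 set to the floor of 3 counts this was 408-fold higher in HepG2, and the lower limit of the exact interval was 331. Factor V is the cofactor that factor X needs. F5 (ENSG00000198734, chr1:169514166-169586588, minus strand) had 1 read in K562 against 2190 in HepG2, a ratio of 2200 (394 to 86943). Both genes of the prothrombin-cutting complex thus had at most 1 read in K562. The K562 table held 41 reads of ALB and 162 of AFP, and the source of such liver reads there was not tested.

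Factor VII binds tissue factor at a wound and starts clotting. F7 (ENSG00000057593, chr13:113105788-113120681) had 0 reads in K562 against 169 in HepG2, 56.6-fold higher in HepG2 at the floor (lower limit 45.5). F7, F10 and PROZ, which encodes protein Z, a Gla protein that helps to inhibit factor Xa, lie side by side on chromosome 13. All 3 had 0 reads in K562, as did 21653 of all 35189 genes and 597 of the 10956 measured. PROZ had 89 reads in HepG2.

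Factor IX, the protease missing in hemophilia B, was the exception in HepG2. F9 (ENSG00000101981, chrX:139530758-139563458) had 0 unique and 0 mapped reads in both lines over its 7 coding junctions. The exact upper limit of this 0 in HepG2 was 0.0549 RPM (unique reads scaled to a common library total) per coding junction. The floor of 3 counts would be 0.0446.

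In the contact system, kininogen (KNG1) carries prekallikrein and factor XI and releases bradykinin, and factor XII is activated on surfaces. KNG1 (ENSG00000113889, chr3:186717276-186744410) had 0 reads in K562 against 165 in HepG2, 55.3-fold higher in HepG2 at the floor (lower limit 44.4). F12 (ENSG00000131187, chr5:177402140-177409576, minus strand) had 8 reads in K562 against 54 in HepG2, a ratio of 6.78 (3.21 to 16.5). The K562 reads of F12 lay on 4 of its 13 coding junctions, with 5 of the 8 at junction 11, which also held the most HepG2 reads (12). Without that junction the log2 ratio of F12 was 3.77, against 2.76 with it.

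Among the genes that limit or reverse clotting, PLG (ENSG00000122194, chr6:160702238-160753315) had 0 reads in K562 against 453 in HepG2. This was 152-fold higher in HepG2 at the floor (lower limit 123). PROC (ENSG00000115718, chr2:127418427-127429246) had 0 and 355, 119-fold higher at the floor (lower limit 96.2). Protein S was the one gene of the 10 with many footprints in both lines. PROS1 (ENSG00000184500, chr3:93873033-93980003, minus strand) had 693 reads in K562 against 1636 in HepG2, a ratio of 2.37 (2.17 to 2.6), or 1.25 on the log2 scale. On totals instead of TMM the log2 ratio of PROS1 was 0.83 and no longer past the 2-fold rule, while over the other alternatives it lay between 1.23 and 1.31. Scaling by totals moved the median of all genes from 0.01 to -0.41 and the genes higher in HepG2 and in K562 from 2402 and 1836 to 1925 and 2656.

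Megakaryocytes and endothelial cells also make protein S, so their markers were read beside it. Of 8 megakaryocyte and platelet markers, with 4690 reads in K562 against 3880 in HepG2, ITGA2B had 119 and 0 and THBS1 had 4565 and 3879. PF4, GP9, GP1BA and F13A1 were at 0 in both lines, PPBP had 6 and 0, and VWF had 0 and 1. The 5 endothelial markers summed to 5 and 53 reads. PECAM1 held 2 and 39 of these, CDH5 0 and 13, KDR 3 and 0, and TEK 0 in both lines. Their part in the PROS1 value was not tested.

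Genes with many introns collect more junction reads, so levels were compared as RPM divided by the number of coding junctions of 1 transcript per gene, which does not correct for coding length. Prothrombin stood first in HepG2 at 64.1, followed by F10 at 17.9, PROS1 at 12.1, F5 at 9.50, PROC at 4.97, PLG at 2.62, F7 at 2.35, KNG1 at 1.72 and F12 at 0.432. The step from F2 to F10 was 3.59-fold (3.38 to 3.82), and every neighboring pair differed beyond counting error except PLG and F7, whose ratio was 1.11 (0.928 to 1.34). F7 stood 1.37-fold (1.09 to 1.71) above KNG1, but their order turned when all junctions of each gene were counted. The median coding junction of F7 had 12 HepG2 reads and that of KNG1 had 11. In K562 the level of PROS1 was 6.80 (6.31 to 7.33) and that of F12 was 0.0852 (0.0368 to 0.168). Single reads put F2 at 0.0107 and F5 at 0.00577, and the other 6 genes were at 0. The exact upper limits of these 0 values were 0.0284 for PLG, 0.0511 for KNG1 and 0.0730 for F7, F9, F10 and PROC.

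**Figure D1:**
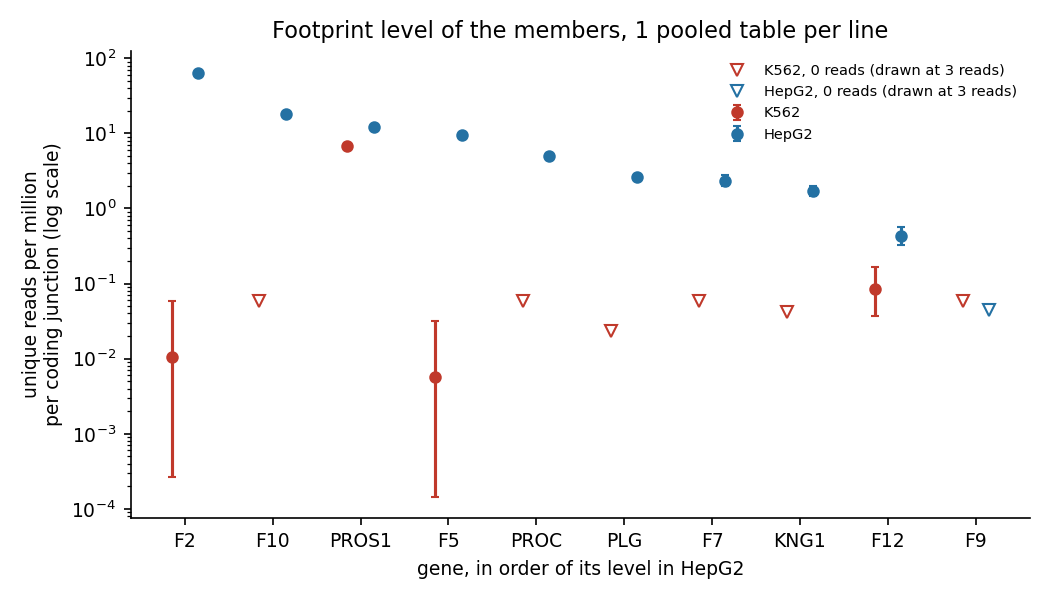
Footprint level of each gene in K562 (red) and HepG2 (blue), as RPM per coding junction on a log scale, with genes in the order of their HepG2 level. Points are the pooled tables, bars are exact 95% counting intervals, and open triangles mark 0 reads, drawn at the level of 3 reads. PROS1 is the gene whose points lie close together, at 6.80 and 12.1, and F9 has 0 reads in both lines.

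Reads were spread unevenly along each message. F2 had reads at all 13 of its coding junctions in HepG2, from 47 to 1731 with a median of 623. F10 ranged from 15 to 517 over 7 junctions, F5 from 8 to 322 over 24, PROC from 3 to 79 over 7 and KNG1 from 2 to 55 over 10. Some junctions had no unique read: 2 of 14 in PROS1, 1 of 18 in PLG and 3 of 13 in F12. The share of a transcript's HepG2 reads at its top junction was highest in F7, with 79 of 158 reads at junction 2, and lowest in F5, at 14.7%.

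**Figure D2:**
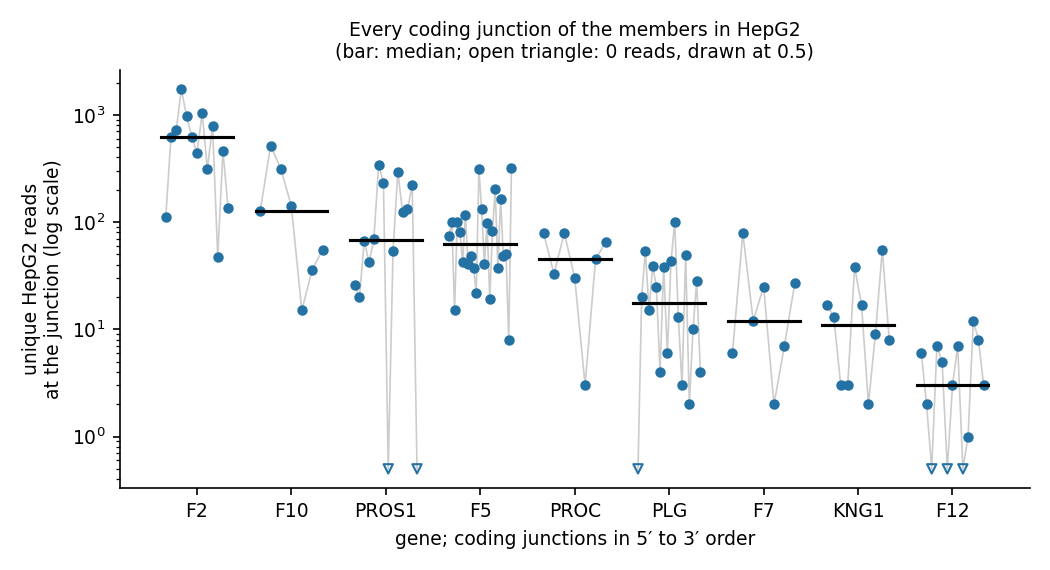
Unique HepG2 reads at each coding junction of the 9 genes with reads, in 5′ to 3′ order within a gene, on a log scale. Each point is 1 junction, bars are medians, and open triangles mark junctions with 0 reads. Junctions of F2 run from 47 to 1731 reads, and within most genes the counts span more than a factor of 10.

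The extremes of prothrombin are shown as spliced sequence, with 15 bases before the junction in lower case and 15 after it in capitals, from the same transcripts. Junction 4, which closes the intron chr11:46720841-46723179 after the exon of 51 bases, had 1731 reads, and junction 11, which closes chr11:46728838-46729379 in the protease part, had 47.
F2 junction 4: ctgcatgtctggaagGTAACTGTGCTGAGG
F2 junction 11: ggagacggcagccagCTTGCTCCAGGCTGG
The single K562 read of F2 lay at junction 3, which had 723 reads in HepG2, and that of F5 at junction 20, which had 164. Factor V has an exon of 2821 bases that encodes most of the B domain removed on activation, and footprints inside it cross no junction. Its borders, junctions 12 and 13, had 309 and 131 reads in HepG2.

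F7, F9, F10 and PROC, which arose from a shared ancestor, have 7 introns at matching places of the coding sequence, named A to G here from the 5′ end. In all 4 genes these interrupt codons at the phases 1, 0, 1, 1, 1, 0 and 1, where the phase is the number of bases of the split codon before the intron. F2 and PROS1 share introns A to C, with phases 1, 0 and 1. The 25-base exon lies between introns B and C. In HepG2, F7 had 6, 79, 12, 25, 2, 7 and 27 reads at junctions A to G. F10 had 127, 517, 311, 140, 15, 36 and 55, and PROC had 79, 33, 79, 30, 3, 45 and 65.

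The B junction, which joins the Gla exon to the 25-base exon, was the most-read of the 7 in F7 (79 of 158 reads, 42.0 to 58.0%) and in F10 (43.0%, 40.2 to 45.9), whereas in PROC it took 9.88% (6.90 to 13.6). The E junction, which joins the second growth-factor-like part to the exon with the activation site, had the fewest unique reads of the 7 in all 3 genes. In F7 this rests on 2 reads against 6 at junction A, whose intervals overlapped, and of all mapped reads F7 had 8 at E and 6 at A. Another 6 unique reads of F7 reached the acceptor of E by skipping the exon before it, and are not counted here. The E junction held 1.27% (0.154 to 4.50) of the 7-junction reads in F7, 1.25% (0.701 to 2.05) in F10 and 0.898% (0.186 to 2.6) in PROC. Around the 25-base exon, F2 had 623 reads before it and 723 after it in HepG2, and PROS1 had 20 and 67 in HepG2 and 8 and 26 in K562. A footprint long enough to cross both ends of so short an exon may be counted at both.

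The E junctions are printed as those with the fewest unique reads, with 15 bases of the upstream exon in lower case and 15 of the downstream exon in capitals.
F7 intron E, chr13:113115801-113116765: cctgcacacccacagTTGAATATCCATGTG
F10 intron E, chr13:113141051-113143850: cctgcattcccacagGGCCCTACCCCTGTG
PROC intron E, chr2:127423409-127426084: agtgtcaccccgcagTGAAGTTCCCTTGTG
F9 had 0 reads at all 7 introns, so its profile cannot be compared.

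**Figure D3:**
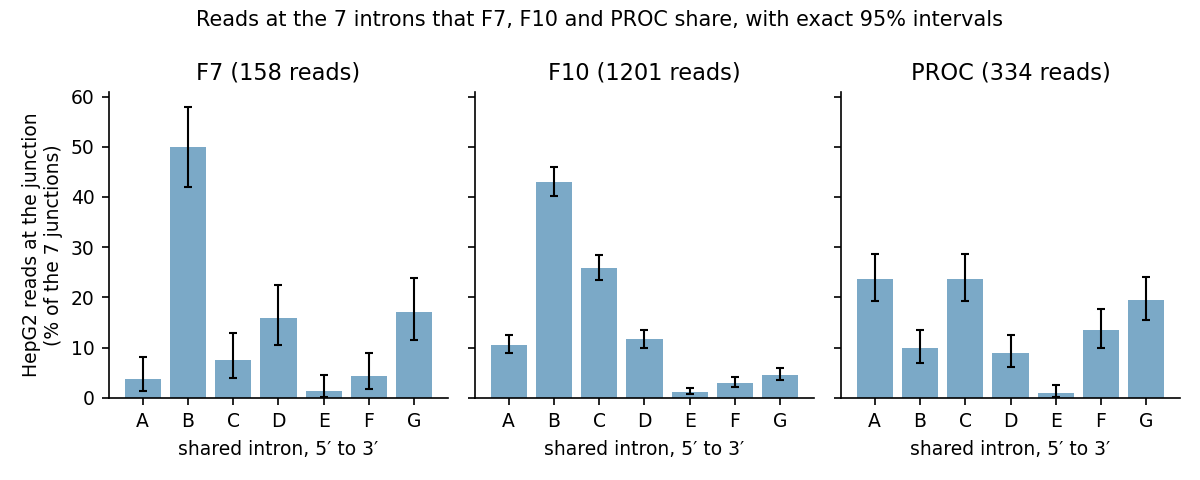
Share of HepG2 reads at each of the 7 introns (A to G, 5′ to 3′) that F7, F10 and PROC share, in percent of the 7 junctions, with exact 95% intervals as error bars. The E junction is the lowest bar in each panel, though in F7 its interval overlaps that of junction A, and the B junction is the highest in F7 and F10 but not in PROC.

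PROS1 was the only gene of the 10 whose profile could be set against itself in both lines. In K562 the 14 coding junctions had 15, 8, 26, 16, 24, 90, 85, 0, 18, 164, 116, 50, 76 and 0 unique reads from 5′ to 3′. In HepG2 they had 26, 20, 67, 42, 69, 342, 233, 0, 54, 295, 123, 131, 221 and 0. High and low junctions fell mostly at the same places. Over the 12 junctions with reads, Pearson's r was 0.82 and Spearman's rho 0.91, as a description of points that share their sequence. Junction 8 had 7 mapped reads in K562 and 40 in HepG2, none unique, and PROS1 has a near-identical pseudogene, PROS2P. Junction 14 had 2 and 3 mapped reads, none unique. At junction 5, 24 of 59 mapped reads in K562 and 69 of 185 in HepG2 were unique, and at junction 6, 90 of 117 and 342 of 465. Unique counts are uncertain at such junctions. Both lines share this limit, and its part in the shared profile was not tested.

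The line difference was unequal along PROS1. At junction 6, which lies among the growth-factor-like repeats, the HepG2 to K562 ratio was 3.82 (3.02 to 4.87), and the junction held 13.1% of the K562 and 21.1% of the HepG2 reads of the transcript. At junction 11, in the part that encodes the sex-hormone-binding-globulin-like region, the ratio was 1.07 (0.820 to 1.38), with shares of 16.9% and 7.58%. At junction 10 the ratio was 1.81 (1.49 to 2.20), with shares of 23.8% and 18.2%, and at the other 9 junctions with reads the intervals of the shares overlapped. Junctions 6 and 11 were picked as the extremes of the 12, after their values were seen. Their spliced sequences follow, with the downstream exon in capitals.
PROS1 junction 6: agaaagattgtaaagATGTGGATGAATGCT
PROS1 junction 11: gaactcattaaaccgATTAACCCTCGTCTA

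**Figure D4:**
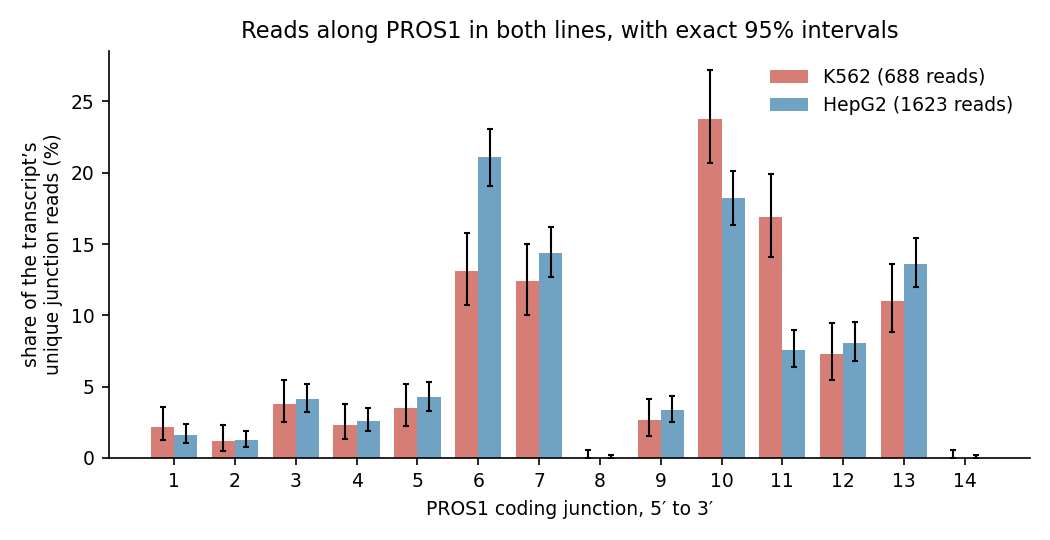
Share of the unique junction reads of the PROS1 transcript at each of its 14 coding junctions in K562 (red, 688 reads) and HepG2 (blue, 1623 reads), in percent, with exact 95% intervals. High and low bars fall mostly at the same junctions, while the intervals do not overlap at junction 6 (13.1% in K562, 21.1% in HepG2), junction 10 (23.8% and 18.2%) and junction 11 (16.9% and 7.58%).

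Alternative junctions were described mostly within HepG2, since no splice site of the 10 genes with more than 1 partner in use had 20 or more reads in each line. At the last acceptor of F10, 55 of 71 reads (77.5%, 66.0 to 86.5) used the main donor, and 13 (18.3%) and 3 (4.23%) used 2 donors just upstream of it. In F7, 25 of 31 reads at the donor of intron D (80.6%, 62.5 to 92.5) went to the next exon and 6 (19.4%) skipped that exon of 141 bases. At the acceptor of intron E, the same 6 skipping reads were 6 of 8 (75.0%, 34.9 to 96.8), so the 2 sites gave unlike shares. From the first donor of F7, 6 of 10 reads went to the Gla exon, and 4 of 10 skipped both it and the 25-base exon. In the 5′ untranslated part of PROC, 8 of 18 reads used 1 acceptor and 10 the acceptor a few bases downstream.

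At the first donor of PROS1, which had reads in both lines, 15 of 19 K562 reads (78.9%, 54.4 to 93.9) and 26 of 32 HepG2 reads (81.2%, 63.6 to 92.8) went to the Gla exon. The remaining 4 and 6 reads entered an alternative exon. These shares overlapped, and with so few reads a moderate difference was not detectable. KNG1 makes a short and a long kininogen by alternative ends. The last junction of the short form, chr3:186741600-186743704, had 8 HepG2 reads and the one before it 55, and the long form has no junction of its own after that point. Its footprints in its own last part were therefore not counted, and those at the upstream junctions cannot be told from footprints of the short form.

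Members of the same pathway were then read as lists. Of all genes measured, 21.9% were higher in HepG2 and 16.8% in K562, and these shares stand beside every list. Of 9 other clotting factors, 4 had 20 or more reads and all 4 were higher in HepG2, and their median log2 ratio was 5.09. The median of this list depended on the setting. It was 2.09 at a minimum of 1 read, 4.26 without each gene's most-read junction, 4.68 on totals and 7.41 at a minimum of 100 reads. F11, the zymogen that activates factor IX, had 1 read in K562 against 747 in HepG2, and F13B, the carrier subunit of factor XIII, had 0 and 117. F3, which encodes tissue factor, had 4 and 42, a ratio of 10.5 (3.83 to 40.5). F8, the cofactor of factor IX, had 7 and 3 reads and was not measured. The 3 fibrinogen genes, the substrate of thrombin, were all higher in HepG2, with reads of 3 and 25654 for FGA, 5 and 23848 for FGB and 6 and 71823 for FGG.

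Of 10 inhibitors and binding proteins, 8 were higher in HepG2 and 1 in K562, beside 21.9% and 16.8% of all genes measured. The median log2 ratio of the 10 was 6.16. Heparin cofactor II (SERPIND1), an inhibitor of thrombin, had 0 and 3580 reads, and antithrombin (SERPINC1) had 0 and 2960. C4BPA and C4BPB, the chains of the plasma protein that binds protein S, had 0 and 504 and 0 and 654. Tissue factor pathway inhibitor (TFPI), which blocks factor VII with tissue factor, was the most-read of the list, with 15158 reads in K562 against 11866 in HepG2, a log2 ratio of -0.35 that lay within 2-fold. TFPI2, a related protease inhibitor, had 146 and 7 reads and was higher in K562 by 20.8-fold (9.82 to 52.5).

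Genes that act on plasminogen were split between the lines. Of 9 measured, 4 were higher in HepG2, 3 in K562 and 2 in neither. Of all genes measured, 21.9% were higher in HepG2 and 16.8% in K562. The median log2 ratio of the 9 was 0.88, and it depended on the setting. It was 0.46 on totals, 1.48 without each gene's most-read junction and 2.50 at a minimum of 100 reads. The genes higher in K562 were 4 with all mapped reads or at a minimum of 1 read, and 2 at a minimum of 100 reads. Carboxypeptidase B2 (CPB2), which slows fibrin breakdown, had 0 reads in K562 against 3088 in HepG2, and the plasmin inhibitor SERPINF2 had 0 and 2863. Higher in K562 were ANXA2, a plasminogen-binding annexin, with 4197 and 245 reads, and the activator PLAT with 148 and 0. PLAT was 49.1-fold higher at the floor (lower limit 39.4). The urokinase receptor PLAUR was also higher in K562, with 73 and 13, a ratio of 5.59 (3.07 to 11). HRG, which lies beside KNG1 on chromosome 3 and encodes a plasma protein that binds plasminogen, had 0 and 2 reads and was not measured.

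Of 11 receptors and surface cofactors, 5 were measured, of which 1 was higher in HepG2 and 2 in K562. Their median log2 ratio of 0.19 turned negative on totals (-0.23), at a minimum of 100 reads (-2.12) and without the most-read junction of each gene (-2.09). PROCR, which presents protein C to its activator, had 359 reads in K562 against 9 in HepG2, 39.7-fold higher in K562 (20.7 to 87.5). Of the related receptor kinases TYRO3, AXL and MERTK, protein S is a ligand of TYRO3 and MERTK, and AXL is activated by GAS6. AXL had 319 and 15 reads, 21.2-fold higher in K562 (12.6 to 38.3), and MERTK had 35 and 881, 25.3-fold higher in HepG2 (18.0 to 36.5). TYRO3, with 134 and 152, lay within 2-fold. THBD, the thrombin-binding cofactor of protein C activation, has no junction in the tables.

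All 15 genes for the vitamin K cycle, precursor processing and export were measured, with 7 higher in HepG2, 2 in K562 and a median log2 ratio of 0.93. Of all genes measured, 21.9% were higher in HepG2 and 16.8% in K562. The quinone reductase NQO1 had 1433 reads in K562 against 10732 in HepG2, a ratio of 7.52 (7.12 to 7.96). The carboxylase GGCX, which modifies the Gla domains, had 260 and 1610, a ratio of 6.22 (5.45 to 7.12), and the reductase VKORC1, the target of warfarin, had 7 and 38. CALU, which binds and restrains the carboxylase, had 3567 and 6232, and the receptor LMAN1, which carries factors V and VIII out of the endoplasmic reticulum, had 3056 and 4949, both within 2-fold. Higher in K562 were FURIN, which removes propeptides, with 590 and 149 reads (3.94-fold, 3.29 to 4.75), and the sulfotransferase TPST2 with 256 and 66 (3.86-fold, 2.94 to 5.14).

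Of 7 further Gla proteins, a list without PROZ, 2 were measured. Of these, 0 were higher in HepG2 and 1 was higher in K562, beside 21.9% and 16.8% of all genes measured. GAS6, the closest relative of protein S, had 68 reads in K562 against 5 in HepG2, 13.5-fold higher in K562 (5.53 to 43.0), and PRRG1 had 20 and 12, within 2-fold. Of the hepatocyte transcription factors, 4 of 4 measured were higher in HepG2, among them HNF4A with 0 and 1545 reads, NR1H4, the bile acid receptor, with 0 and 733, and PROX1 with 0 and 180.

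**Figure D5:**
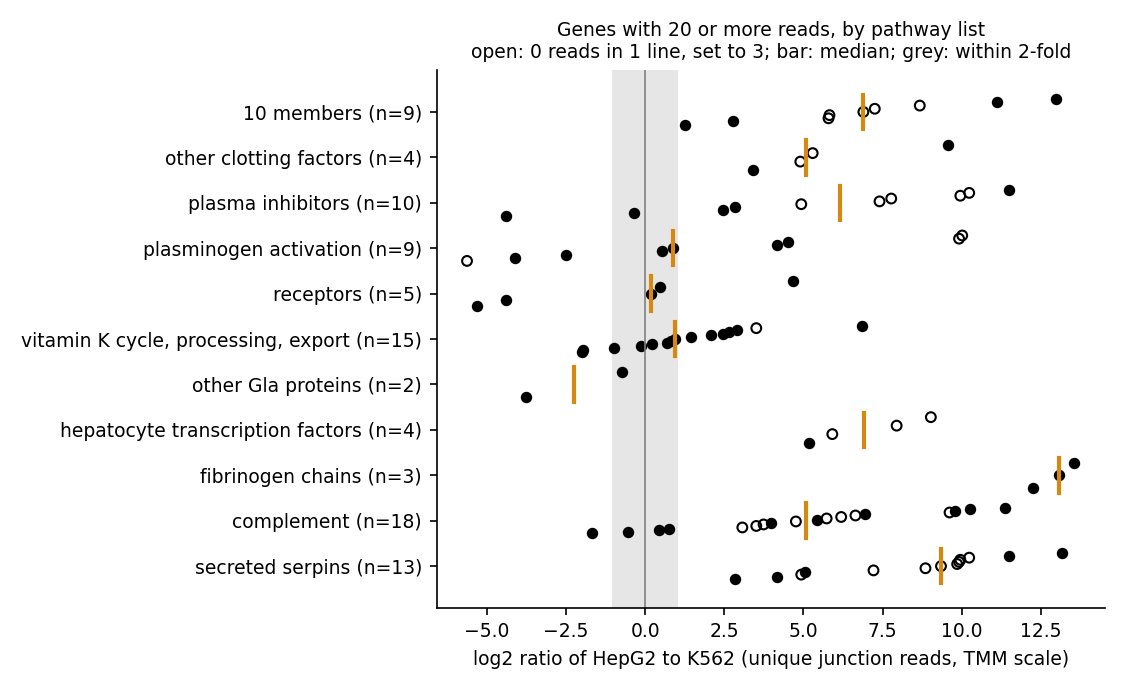
Log2 ratio of HepG2 to K562 for each gene with 20 or more reads, by pathway list, on the TMM scale. Filled points are ratios, open points are genes with 0 reads in 1 line set to 3 counts, orange bars are medians and the grey band is the range within 2-fold. The 9 measured clotting and fibrinolysis genes lie between 1.25 and 12.97. The lists for plasma inhibitors, plasminogen activation, receptors, complement, and the vitamin K cycle, processing and export lie on both sides of 0. The 2 other Gla proteins measured lie below 0.

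The liver-type transcription factor HNF4A binds a known motif, and the RefSeq promoters of the 10 genes (12 promoters of 300 bases, from 250 before to 50 after the start, GRCh38.p14) were searched for 3 letter strings on both strands. CAAAGT, the core of HNF4 sites, was found in F7, F9 and F10 and in 11.9% of all 35116 promoters. The longer CAAAGTCCA, which contains it, was found in F10 and in 0.384% of all. CAAAGGTCA, a related string, was found in none of the 10 genes and in 0.407% of all. Windows of 30 bases follow on the plus strand, which is the strand of each of these genes, with the match in capitals as its reverse complement.
F7, chr13:113105767-113105796: tggaggcagagaACTTTGcccgtcagtccc
F9, chrX:139530700-139530729: agctcagcttgtACTTTGgtacaactaatc
F10, chr13:113122786-113122815: cagctggggcgTGGACTTTGctccagcagc
F9 carried the core match but had no footprint in HepG2, and the other 7 genes held none of the 3 strings in these promoters. A match is a run of letters and was not tested for binding.

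The genes whose RPM in the 2 tables lay nearest to the median of the 10 genes were ZNF556, SULF2, CDHR2, PATJ and KIAA1217. They were ranked by the distance of log2(RPM + 0.5) in both lines, from 0.000 for ZNF556 to 0.024 for KIAA1217. Each had 0 reads in K562 against between 399 and 408 in HepG2, beside a median of 404 for the 10 genes in HepG2.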

How the data were processed

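Per the labels, 1 junction table covered both samples of each line. Per the file headers, it lists annotated splice junctions, each with deposited raw counts of all mapped and of uniquely mapped reads. The submitters' processing notes name cutadapt, Bowtie2, STAR 2.6.0 and GRCh38. How the counts were made, on which annotation release, and whether a read that crosses 2 junctions counts at both, is not given in the sources used here.

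Unique reads were summed per gene, leaving out 6033 junctions of several genes. Symbols were matched for 34661 of 35316 identifiers and for all 10 genes. Introns and transcripts came from GENCODE release 29, and the transcript whose introns held most reads was used. TMM factors (edgeR 4.0.16) set the depths, and ratios have exact 95% conditional binomial (Clopper-Pearson) intervals. The counts are of reads, with no molecular identifiers shown, so intervals and floors cover counting error only. Scripts were tested on simulated data. Pathway genes named are the 3 most-read of a list, those higher in K562 and neighbors of the 10 genes. Any others were chosen after their values were seen. Some genes of the lists are not reported here and enter no list count. The 10 genes and all lists were chosen with earlier results of these data known. Alternatives covered scaling, read type, read minimum, junction choice and interval.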

Additional observations from a re-analysis of the deposited data

Results flagged for a closer look

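These values are of all mapped reads, most or all of them not unique, and each stands above the floor of 3 counts. Reads that were not unique entered only the alternative that counts all mapped reads. Some junctions of PLG and PROS1 had mapped but no unique reads, and both genes have near-identical copies in the genome. Junction 1 of PLG had 26 such reads in HepG2, and junction 8 of PROS1 had 7 in K562 and 40 in HepG2. The pseudogene PROS2P had 146 mapped reads in K562 and 352 in HepG2, of which 1 and 4 were unique. In HepG2 the relatives of plasminogen had 27 mapped reads (PLGLA), 5 (PLGLB1), 9 (PLGLB2) and 13 (LPA, 1 of them unique). Which copy these reads came from was not tested, and PROS1 and PLG counts are uncertain at such junctions.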

How the results depend on the processing

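All 9 measured genes were higher in HepG2 under each alternative that measured them, except PROS1 on total scaling (given above). At a minimum of 100 reads F12 was not measured. Of 71 alternative ratios, 70 kept direction and call. The median log2 ratio of the 9 genes was 6.47 on totals and 6.48 without each gene's most-read junction. The median level in HepG2, 3.79 RPM per coding junction, was 2.45 with all junctions and 3.36 with all mapped reads. At a minimum of 100 reads, the genes higher in HepG2 fell to 2 of the other clotting factors and 8 of complement, and those higher in K562 to 0 of the other Gla proteins, as fewer genes were tested. Without the most-read junction, the genes of the vitamin K, processing and export list higher in K562 fell from 2 to 1. The receptors' median turned to -0.23 on totals, -2.12 at 100 reads and -2.09 without the most-read junction. Where K562 had 0 reads the fold rests on the floor and shrinks with HepG2 reads. Without its most-read junction, the log2 fold of F7 at the floor went from 5.82 to 4.87. That of F10 went from 8.67 to 7.83 and that of KNG1 from 5.79 to 5.16. At 10 reads per site, 2 PROS1 sites were compared and 0 counted. No paired analysis was possible because each table pools both replicates of a line, and for the same reason none could be left out.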

Other observations

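Other plasma protein genes of the liver were read beside the clotting genes. Of all genes measured, 21.9% were higher in HepG2 and 16.8% in K562. All 13 secreted serpins were higher in HepG2 (median log2 ratio 9.34), led in reads by SERPINA1, the inhibitor of neutrophil elastase, with 7 reads in K562 against 64084 in HepG2. SERPINF1 had 175 and 5762 reads, and SERPIND1, an inhibitor of thrombin, 0 and 3580. Of 18 complement genes measured, 14 were higher in HepG2, 1 in K562 and 3 in neither, with a median of 5.10. C3, the central complement protein, had 112 and 97115 reads, CFI, the protease that cuts it once activated, 3 and 7794, and CD46, a surface regulator, 2160 and 3606, within 2-fold. The gene higher in K562 was CD55, a surface regulator that speeds the decay of the enzymes that cut C3, with 579 and 182 reads, 3.17-fold higher (2.68 to 3.76).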
